A study of Mus musculus with 4 samples.

Results

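The 7 immunoglobulin heavy chain constant genes of the mouse that were asked about here are Ighm, Ighd, Ighg3, Ighg1, Ighg2b, Ighg2c and Igha. They were followed by symbol through 41122 bone marrow cells, the cells kept from 44151 barcodes, in a matrix of 32285 genes. Cells with at least 10 UMIs of Jchain, the joining chain of polymeric antibody, and at least 5 UMIs of Mzb1, an endoplasmic reticulum co-chaperone of antibody assembly, were taken as antibody-secreting. A UMI (unique molecular identifier) stands for 1 captured RNA molecule. There were 479 such cells, and the member with the most UMIs in a cell was called its dominant isotype. In 34 of the 479 cells this was a gene other than Ighm, so that these cells read as class-switched, and in the other 445 it was Ighm.

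The heavy chain constant genes lie in a row behind the rearranged variable region. A B cell that has joined its variable segments first makes IgM from Ighm, the nearest constant gene, and a naive mature B cell also makes IgD by splicing the same long transcript to Ighd. Class switching cuts the DNA between switch regions and brings an Ighg gene (IgG), Ighe (IgE) or Igha (IgA) next to the same variable region, so an antibody-secreting cell normally expresses 1 isotype. Constant genes that have not been joined to a variable region can also be transcribed from their own promoters as germline transcripts, and Ighm has such a transcript in early lymphoid progenitors. Antibody-secreting plasma cells lodge in the bone marrow for long periods.

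In the GENCODE vM21 annotation of the GRCm38 build (mm10) all 7 genes lie on the minus strand of chromosome 12, in the order Ighm (chr12:113418558-113422730), Ighd (chr12:113406604-113416324), Ighg3 (chr12:113356224-113361232), Ighg1 (chr12:113325240-113330523), Ighg2b (chr12:113302965-113307933), Ighg2c (chr12:113285325-113288932) and Igha (chr12:113254830-113260236). Ighe lies between Ighg2c and Igha. The last 80 bases of the secreted-form coding sequence, stop codon included, are shown for the 6 genes that were dominant in at least 1 cell, because this end is what separates secreted from membrane-bound antibody and polymeric from monomeric isotypes. Each lies in the last coding exon of the secreted form. Capitals mark the bases after the point where the secreted and the membrane coding sequence part.
Igha, chr12:113258768-113258847: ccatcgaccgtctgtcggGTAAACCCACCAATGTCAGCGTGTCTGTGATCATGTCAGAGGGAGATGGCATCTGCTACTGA
Ighg3, chr12:113359665-113359744: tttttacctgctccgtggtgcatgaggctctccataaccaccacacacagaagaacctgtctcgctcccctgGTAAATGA
Ighg1, chr12:113328976-113329055: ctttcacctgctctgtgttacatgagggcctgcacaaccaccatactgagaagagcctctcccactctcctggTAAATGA
Ighg2b, chr12:113306389-113306468: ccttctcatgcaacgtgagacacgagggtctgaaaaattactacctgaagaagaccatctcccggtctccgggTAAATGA
Ighg2c, chr12:113287389-113287468: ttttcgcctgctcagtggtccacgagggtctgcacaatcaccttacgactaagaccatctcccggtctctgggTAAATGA
Ighm, chr12:113420867-113420946: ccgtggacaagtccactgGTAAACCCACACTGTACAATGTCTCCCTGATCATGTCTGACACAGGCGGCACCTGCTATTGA
After that point Igha and Ighm go on for 62 bases, the tailpiece, where the IgG genes have 7 or 8. Of the last 77 coding bases before the stop codon, 48 were the same in Igha and Ighm. The tailpiece carries the cysteine through which IgA and IgM join the J chain and form polymers. The 4 IgG genes resemble each other: over the 320 bases of the last coding exon, identity without gaps ran from 64.7% between Ighg3 and Ighg2c to 76.6% between Ighg2b and Ighg2c, with no identical run above 19 bases. Reads of the IgG subclasses could still be split between these paralogs, and counts per gene do not separate secreted from membrane forms or antibody RNA from germline transcripts.

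The cells came from a competitive transplantation, in which Srcap heterozygous mutant or wild-type donor marrow of C57BL/6 mice, carrying the CD45.2 form of CD45, competes with other marrow in recipients. At 20 weeks donor hematopoietic stem and progenitor cells (HSPCs) were sorted from bone marrow and 20000 cells per sample entered a 10x Genomics 3' library. The labels name 2 Srcap mutant and 2 wild-type samples, leave the change in the Srcap allele unnamed, and do not tie the 4 libraries of the deposited matrix, numbered by barcode suffix, to samples. Mutant and wild type therefore could not be compared, and values are given library by library.

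The 4 libraries held 9026 to 12418 kept cells with medians of 9824 to 10226.5 UMIs per cell. Antibody-secreting cells made up 0.821%, 0.838%, 1.15% and 2.02% of the kept cells of libraries 1 to 4, with 95% binomial intervals of 0.670% to 0.996%, 0.669% to 1.04%, 0.947% to 1.38% and 1.74% to 2.33%. All intervals here cover counting error only. The interval of library 4 lay above the other 3. All 8 markers of antibody-secreting cells, 6 of them not used to choose the cells, were at least 2-fold higher in them than in the other cells of each library. Among these 6, Sdc1, the plasma cell surface proteoglycan CD138, had 118 to 134 CPM (UMIs scaled to the same total in every library and class) in secreting cells, against 3.16 to 3.85 CPM in the rest. The labels call the sorted population HSPCs, and the 4 stem cell markers had a median of 0 UMIs per secreting cell. Of the secreting cells, 7, 13, 8 and 26 of libraries 1 to 4 had doublet scores in the highest 8% of their library. Without these cells Ighm was dominant in 88.4%, 90.1%, 95.1% and 97.4% of secreting cells, against 88.2%, 90.5%, 95.5% and 95.1% with them. Switched cells of library 4 were thus more often among the high scores than its Ighm cells. Over all libraries the IgG share was 4.24% without them and 5.01% with them, and the Igha share 2.12% and 2.09%. Kept cells of different libraries shared 178 barcode sequences, and secreting cells shared 0.

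Class-switched cells were a minority of the secreting cells in all 4 libraries. They numbered 12 of 102, 8 of 84, 5 of 111 and 9 of 182 in libraries 1 to 4, against 90, 76, 106 and 173 cells in which Ighm was dominant. The switched share was 11.8% (interval 6.23% to 19.6%), 9.52% (4.20% to 17.9%), 4.50% (1.48% to 10.2%) and 4.95% (2.29% to 9.18%). The 4 intervals overlap, which is no test of a difference between libraries, and none was run.

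Ighg2b, an IgG2 subclass gene, was the most frequent switched isotype, with 12 cells (4, 2, 2 and 4 in libraries 1 to 4). Igha was next with 10 cells, of which 4 were in library 1, 4 in library 2, 1 in library 3 and 1 in library 4. Ighg3 had 5 cells (3, 1, 0 and 1), Ighg1 had 4 (0, 0, 1 and 3) and Ighg2c had 3 (1, 1, 1 and 0). Ighg2b and Igha were thus found in every library, while each of the other 3 IgG genes was missing as a dominant isotype from at least 1 library. Ighd was dominant in 0 secreting cells. A floor of 3 counts stands at 2.94%, 3.57%, 2.70% and 1.65% of the secreting cells in libraries 1 to 4, and the exact binomial upper bounds are 3.55%, 4.30%, 3.27% and 2.01%. Ighe, the IgE constant gene, had 15 UMIs in all kept cells and 0 in secreting cells.

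**Figure D1:**
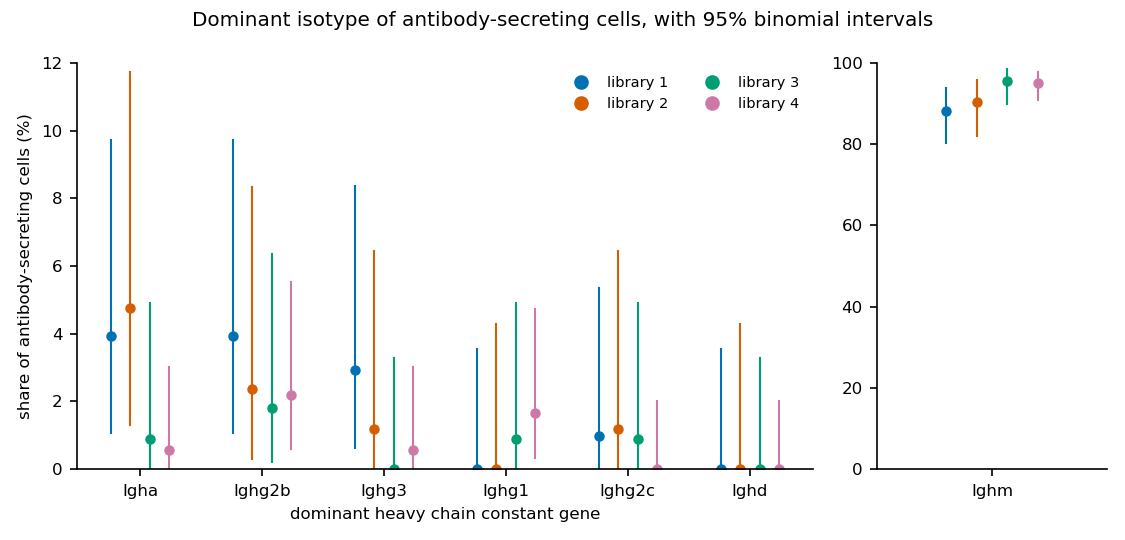
Share of antibody-secreting cells (percent, vertical axes of different range) by dominant heavy chain constant gene, switched genes and Ighd on the left and Ighm on the right. Points are the 4 libraries and lines their exact 95% binomial intervals. Ighm held 88.2% to 95.5% of the cells and no other gene more than 4.76%.

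In nearly every secreting cell a single isotype held almost all heavy chain UMIs. The dominant gene held a median of 99.6% of the heavy chain UMIs in the 34 switched cells and 100% in the 445 Ighm cells. At least 95% was reached by 32 of the 34 switched cells and 444 of the 445 Ighm cells. All heavy chain UMIs came from the dominant gene in 6 switched cells and 357 Ighm cells. Another constant gene had at least 10 UMIs in 13 switched cells and 10 Ighm cells. These shares describe the choice of a dominant gene and were not tested. Of the 2 switched cells under 95%, the Ighg2b cell had 53 of 59 heavy chain UMIs from Ighg2b, and the Igha cell had 26 of 28 from Igha with 2 from Ighm. Both were in library 1 and held far fewer heavy chain UMIs than the rest of the switched cells, which started at 659. The isotype calls of both thus rest on few UMIs.

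The median amount per cell was large for each isotype, but the lowest cells had few UMIs. The dominant gene had 26, 1329.5 and 2807 UMIs (lowest, median, highest) in the 10 Igha cells. It had 53, 2610 and 4936 UMIs in the 24 IgG cells, and 44, 1947 and 5474 UMIs in the 445 Ighm cells. These are 3' counts, which score 1 UMI per captured transcript whatever its length. The IgG cells covered nearly the range of the Ighm cells, and the highest Igha cell lay below the highest of both. The dominant gene alone took a median of 11.4% of all UMIs of a switched cell and 11.1% of those of an Ighm cell.

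Within the IgG genes the cells differed by a wide margin. The 3 Ighg2c cells had 2678, 845 and 2668 Ighg2c UMIs in libraries 1, 2 and 3. The 4 Ighg1 cells had 4298 Ighg1 UMIs in library 3 and 3086, 3064 and 1880 in library 4. The 5 Ighg3 cells had 3294, 1067 and 636 Ighg3 UMIs in library 1, 1440 in library 2 and 2038 in library 4. The ranges of the 4 subclasses overlapped, so no order of the subclasses could be read from these few cells.

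Ighm is below the dominant gene in switched cells by their definition, so its UMIs there are only a description. The median was 1 Ighm UMI per switched cell, and the highest was 91 in an Ighg2b cell of library 4 that had 3273 Ighg2b UMIs. The next were 28 in an Igha cell of library 2 and 22 in an Ighg3 cell of library 1. Ighd was seen in 0 of the 34 switched cells and in 5 of the 445 Ighm cells, each with 1 UMI.

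**Figure D2:**
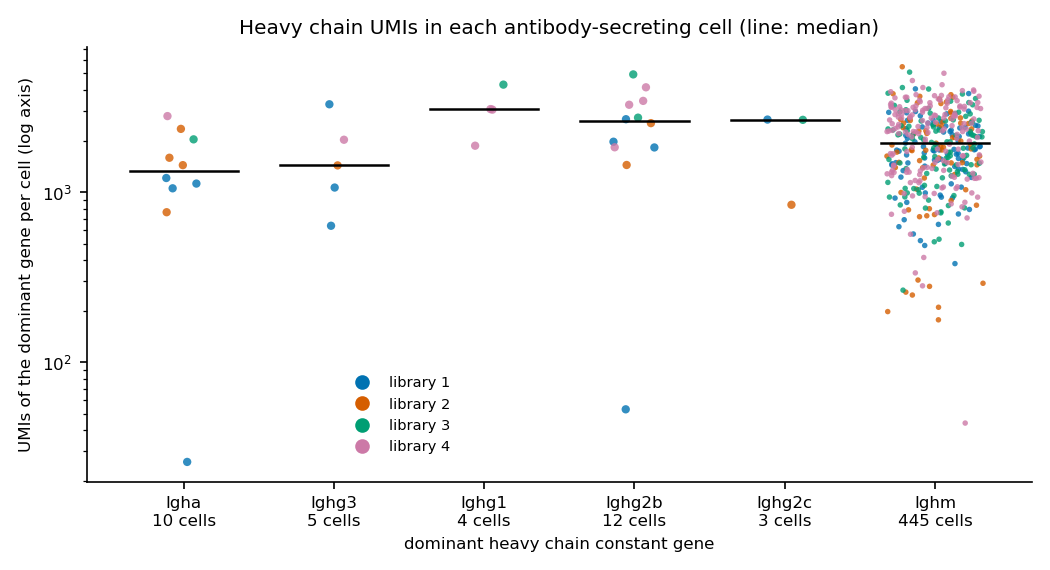
UMIs of the dominant heavy chain constant gene in each of the 479 antibody-secreting cells (vertical log axis), by dominant gene, coloured by library, with the median as a line. The medians lie at 1329.5 for Igha, between 1440 and 3075 for the IgG genes and at 1947 for Ighm, and 1 cell each of Igha, Ighg2b and Ighm lies below 100 UMIs.

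The partners of the heavy chain were set beside each isotype. Jchain, which polymeric antibody needs, had 208, 927.5 and 1699 UMIs per cell (lowest, median, highest) in Igha cells, 29, 313.5 and 1025 in IgG cells and 10, 642 and 1901 in Ighm cells. Jchain is one of the genes used to choose the cells, so its presence in every cell is set by that choice. Light chain UMIs per heavy chain UMI had medians of 4.56 in Igha cells, 3.40 in IgG cells and 3.37 in Ighm cells. The highest values were 194 in Igha cells, 11.6 in IgG cells and 11.5 in Ighm cells. The value of 194 came from the Igha cell with only 28 heavy chain UMIs, so its isotype is uncertain. The lambda light chain was dominant in 1 of 10 Igha cells, 2 of 24 IgG cells and 36 of 445 Ighm cells, the last being 8.09% with an interval of 5.73% to 11.02%. The number of switched cells was too small to separate these shares.

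A few cells with much heavy chain RNA fell outside the definition. Only 1 secreting cell had between 10 and 19 Jchain UMIs, with 50 heavy chain UMIs, and 41 had 5 to 9 Mzb1 UMIs, with a median of 1313 heavy chain UMIs. Just outside, 10 cells with enough Jchain had 2 to 4 Mzb1 UMIs, with a median of 1434 heavy chain UMIs. In all, 19 cells outside had at least 100 UMIs of the 7 genes, and Ighm was dominant in 17 of them, Igha in 1 and Ighg1 in 1. They bear on the class values below: a single cell of library 2 held 2595 of that library's 2599 Ighg1 UMIs in the lymphoid-primed class, and a single cell of library 1 held 637 of that library's 754 Igha UMIs in the remaining progenitors.

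Switched cells were compared with Ighm cells across all other genes, on UMIs summed per library. Counted genes are those at least 2-fold higher in each of the 4 libraries, or at least 2-fold lower in each; this criterion concerns size alone and involves no test. The comparison had 12, 8, 5 and 9 switched cells with 115618, 71995, 40964 and 81265 UMIs outside the immunoglobulin genes, against 928344, 748381, 966433 and 1584225 UMIs in Ighm cells. Of 9330 genes with at least 20 UMIs, 7 were higher (0.075%) and 542 lower (5.81%) in switched cells. Of the 542, 530 had at most 3 UMIs in all switched cells together, and 483 of them had none. Among genes with at least 100 UMIs, 1 of 4621 was higher and 36 were lower.

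No gene of the plasma cell lists was counted, but few genes were counted at all: 0.075% of 9330 tested genes higher and 5.81% lower. Among genes with at least 100 UMIs it was 1 and 36 of 4621, so the absence of counted genes says little about these lists. None of the 8 tested transcription factors of plasma cells, none of 30 tested genes of antibody folding and secretion and none of 15 tested surface and survival genes was counted in either direction. Their median log2 differences were 0.19, 0.17 and -0.12, against -0.49 over all genes. Per library, the all-gene median was -1.62 in library 3, which had 5 switched cells, and -0.26 to -0.22 in the others. Xbp1, the transcription factor of the secretory program, had a log2 difference of 0.52 to 1.08 over the 4 libraries. Sdc1 had -0.18 to 0.67 and Prdm1, which encodes the plasma cell regulator Blimp-1, -1.63 to 0.80. Tnfrsf17, the survival receptor BCMA, was lower in all 4 libraries, by -0.45 to -1.63, but short of 2-fold in at least 1.

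Selenom, an endoplasmic reticulum selenoprotein gene, was the named gene higher in switched cells, with 182 to 439 CPM against 76.2 to 114 CPM in Ighm cells (log2 1.08 to 1.94). CPM in this comparison and the next leaves the immunoglobulin genes out of the total. Ptpn6, which encodes the phosphatase SHP-1, was lower, with 13.9 to 77.8 CPM in switched cells against 226 to 246 CPM in Ighm cells. Ehd4, an endocytic recycling gene, had 17.3 to 48.8 CPM in switched cells against 134 to 167 CPM in Ighm cells. Mpo, the neutrophil enzyme myeloperoxidase, had 3 UMIs in all switched cells and 773 in Ighm cells. Plek had 2 UMIs in switched cells and 202 in Ighm cells, Adgrl4 3 and 244, Lpp 4 and 249, and Bdp1 4 and 247. Ccdc12 had 7 and 318, Taf15 8 and 340, and Adgre5 7 and 372. Over 5 granulocyte and monocyte markers, Mpo among them, secreting cells had a median of 0 UMIs, and the part of such RNA in the Mpo difference was not tested. Among list members, Cd72, Bach2 and Cd83 of the B cell identity list were counted as lower. They had 0, 0 and 1 UMIs in switched cells and 28, 22 and 55 in Ighm cells. The Ighm cells had many times the UMIs of the switched cells in total, so counts this low do not show a lower level. B cell identity had 13 tested genes with 0 higher and 3 lower, where 5.81% of all genes were lower. Its median log2 difference was 0.17, against -0.49 over all genes, a value that differed between libraries. The early B cell list had 7 tested genes with 0 higher and 1 lower (Bach2), and a median of -1.38.

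Class switching and somatic mutation had 11 tested genes, switch factors and cytokine receptors 12, and cell division 12. None was counted in either direction between switched and Ighm cells, where 0.075% of all genes were higher and 5.81% lower. The list medians were -1.90, -2.48 and -1.15, against -0.49 over all genes. Per library they ran from -3.63 to 0.72, -3.34 to -0.68 and -3.37 to 0.87. The all-gene median was -1.62 in library 3, with 5 switched cells, and -0.26 to -0.22 in the others. How far few UMIs in switched cells set these medians was not tested.

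Across the whole marrow sort Ighm followed the B lineage. With all UMIs in the total, its level in libraries 1 to 4 was 85699, 95962, 102819 and 114858 CPM in antibody-secreting cells and 1633, 2873, 2757 and 6713 CPM in mature B-like cells. It was 694, 783, 756 and 801 CPM in pro-/pre-B-like cells and 596, 627, 654 and 703 CPM in the early lymphoid class (Il7r and Ly6d). The ranges of secreting, mature and pro-/pre-B-like cells did not overlap, while those of pro-/pre-B-like and early lymphoid cells did. The classes were drawn from a few marker genes other than heavy and light chains, and the mature class had 190 cells at a median depth of only 2219.5 to 2735 UMIs per library. In library 4, 1 mature B-like cell held 1510 Ighm UMIs, and without it the level there was 2801 CPM.

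Ighm RNA was also present before the B lineage. It stood at 345, 306, 307 and 321 CPM in the lymphoid-primed class, which is defined by Dntt, the terminal transferase of lymphoid progenitors. Without 6 cells that held plasma cell RNA (at least 20 light chain or 10 Jchain UMIs), the range of that class was 269 to 321 CPM. Conventional dendritic-like cells had 221, 226, 208 and 216 CPM and T/NK-like cells 129 to 268 CPM. The 23 plasmacytoid dendritic-like cells had 484 to 951 CPM. The lowest levels were in megakaryocyte-like cells, with 23.8 to 35.5 CPM, and in erythroid-like cells, with 21.7 to 32.4 CPM, and these ranges overlapped.

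The share of cells with an Ighm UMI was also compared at equal depth. Thinned to 3000 UMIs per cell, which left out 27 shallower pro-/pre-B-like cells and 27 lymphoid-primed cells, 82.1% to 90.3% of pro-/pre-B-like cells and 52.3% to 60.6% of lymphoid-primed cells had an Ighm UMI, against 5.77% to 11.1% of megakaryocyte-like cells. Unthinned, the shares were 99.25% to 100% and 89.0% to 93.6%, against 31.4% to 39.2% in megakaryocyte-like cells. Megakaryocyte-like cells, which should lack Ighm, were the deeper class, with medians of 13485.5 to 16828 UMIs against 11781 to 12854 in lymphoid-primed cells.

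**Figure D3:**
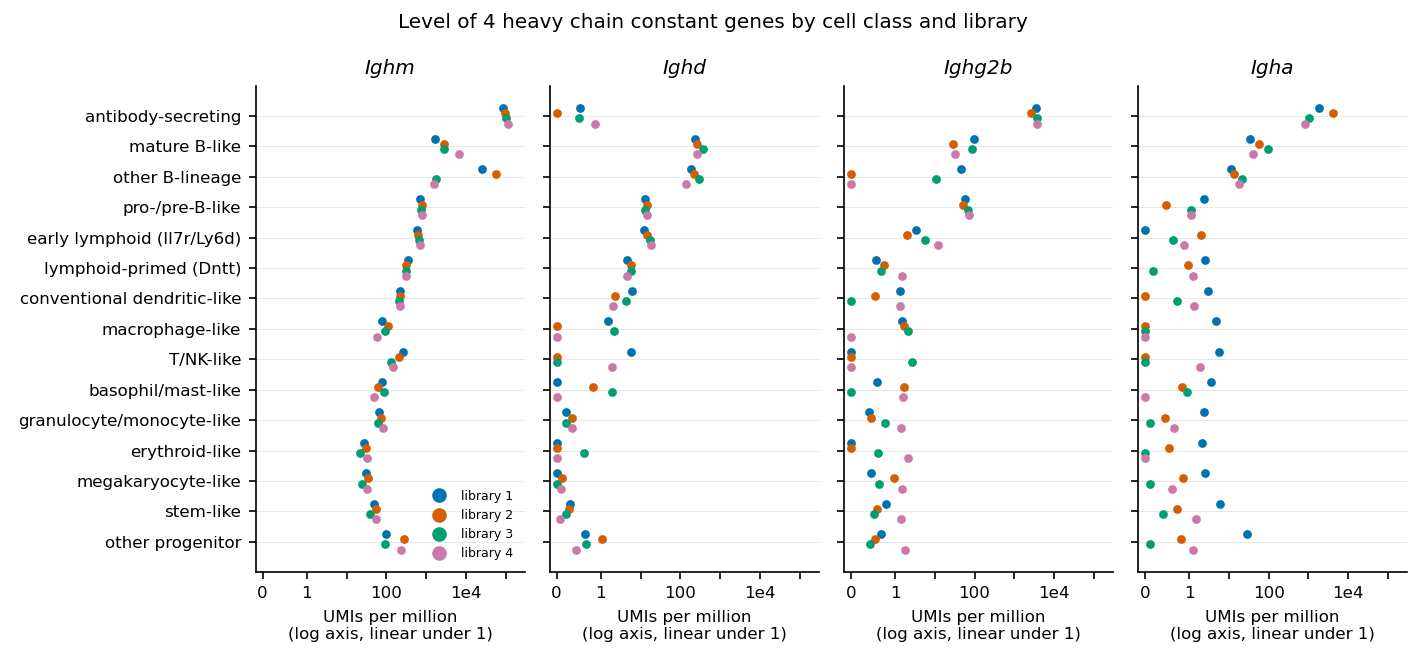
Level of Ighm, Ighd, Ighg2b and Igha in 15 cell classes (CPM of all UMIs, log axis that is linear under 1), 1 point per library. Ighm is highest in secreting cells and lowest in megakaryocyte- and erythroid-like cells, Ighd peaks in mature B-like cells, and Ighg2b is as high in pro-/pre-B-like cells, at 51.8 to 73.4 CPM, as in mature B-like cells.

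The ratio of Ighm to the kappa light chain gene Igkc differed between these classes. Secreting cells had 0.266 to 0.340 Ighm UMIs per Igkc UMI, mature B-like cells 0.344 to 1.45 (0.332 to 0.663 without the cell of most Ighm UMIs in each library), pro-/pre-B-like cells 11.3 to 17.1 and early lymphoid cells 9.13 to 17.9. In lymphoid-primed cells the ratio was 3.799 to 7.34 without the cells that held plasma cell RNA, and with them it was 0.597 to 6.54, since 1 cell of library 2 alone held 9859 Igkc UMIs. Conventional dendritic-like cells had 2.38 to 4.38. Megakaryocyte-like cells had 0.464 to 0.694, erythroid-like cells 0.426 to 0.761 and stem-like cells 0.579 to 0.926, closer to the secreting cells of the same libraries. Free RNA from 1 source keeps its genes in 1 ratio in every class of a library. How much of the Ighm of each class came from free RNA was not tested.

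**Figure D4:**
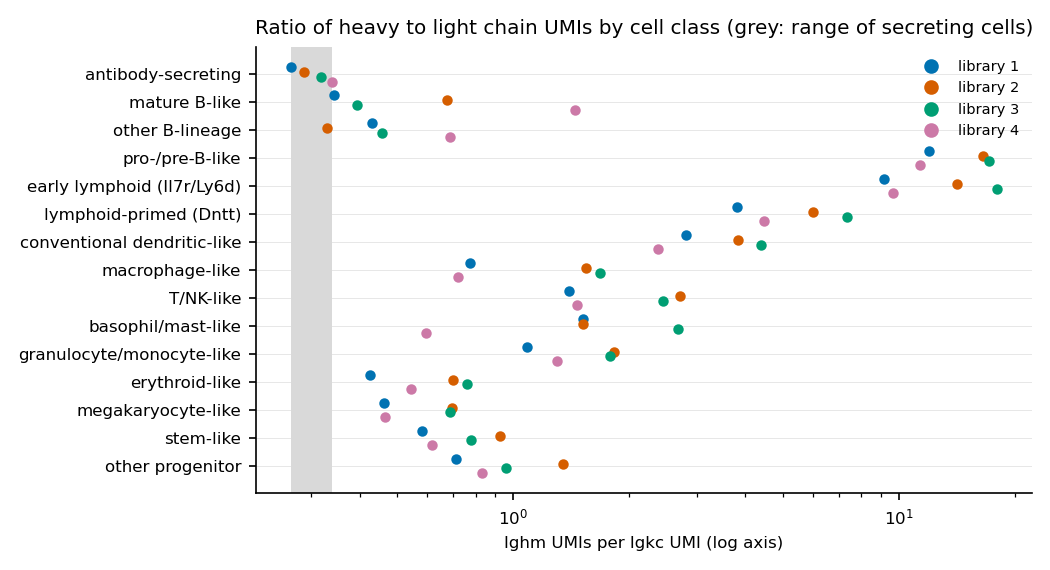
Ighm UMIs per Igkc UMI (log axis) by cell class, 1 point per library, without non-B cells that held plasma cell RNA. The grey band is the range of antibody-secreting cells, 0.266 to 0.340, and pro-/pre-B-like and early lymphoid cells lie between 9.13 and 17.9.

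Ighd was highest in the mature B-like class and in the class of other B-lineage cells (Cd79a and Cd79b), whose ranges overlapped. Its level in mature B-like cells was 229, 262, 360 and 256 CPM in libraries 1 to 4, and 112 of the 190 cells had at least 1 Ighd UMI, with no cell above 6. All 112 also had Ighm. The other B-lineage cells had 184, 224, 287 and 135 CPM, with Ighd in 32 of 66 cells. Pro-/pre-B-like cells had 13.2, 14.7, 13.0 and 14.6 CPM, early lymphoid cells 12.4 to 17.7 CPM and lymphoid-primed cells 4.47 to 5.67 CPM. The last 3 classes were above the megakaryocyte-like cells, at 0 to 0.124 CPM, in each library. Secreting cells had 5 Ighd UMIs in 479 cells, against 272 UMIs in 190 mature B-like cells, although secreting cells were the deeper, with medians of 17002.5 to 18739.5 UMIs per library. In the mature class Ighm was dominant in 163 cells, an IgG gene in 7, Ighd in 6 and Igha in 4, and 10 had no dominant gene.

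Ighg2b was the one IgG gene with a level of its own in early B cells. Pro-/pre-B-like cells had 57.1, 51.8, 67.0 and 73.4 CPM, and 380 of 1368 cells had at least 1 UMI, 99 of them 5 or more, up to 23. In early lymphoid cells the level was 2.01 to 12.4 CPM and in lymphoid-primed cells 0.582 to 1.51 CPM, the last overlapping the 0.457 to 1.52 CPM of megakaryocyte-like cells. Mature B-like cells had 99.4, 28.4, 86.8 and 32.3 CPM, a range that held that of the pro-/pre-B-like cells. Thinned to 3000 UMIs, 8.54% to 15.5% of pro-/pre-B-like cells had an Ighg2b UMI, against 0.178% to 0.619% of megakaryocyte-like cells. The other IgG genes did not share this: in pro-/pre-B-like cells Ighg1, Ighg2c and Ighg3 had at most 1.46, 0.931 and 1.22 CPM.

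In the whole pro-/pre-B-like class Ighm was dominant in 1341 of the 1368 cells and an IgG gene in 11. In libraries 1 to 4, Ighm had 737, 840, 750 and 838 CPM in the cells with an Ighg2b UMI, against 677, 761, 759 and 780 CPM in those without. Rag1, a recombinase gene of variable segment joining, had 102, 115, 82.8 and 100.4 CPM in cells with Ighg2b, against 119, 171, 143 and 118 CPM in cells without. Dntt had 1024, 1021, 1237 and 1110 CPM with and 1193, 1181, 1498 and 1473 CPM without. Rag1 and Dntt were lower in the cells with Ighg2b in all 4 libraries, by less than 2-fold. They were not alone: among the genes compared, Vpreb3, Ebf1, Lef1, Mki67, Top2a and Ptprc were also lower in all 4. Myc and Bach2 were higher in all 4. The cells with Ighg2b were also deeper, with medians of 16159.5 to 17801.5 UMIs, against 11780 to 14489 UMIs without. The part of depth in these differences was not tested.

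Igha and the remaining IgG genes had low levels outside the secreting cells. In mature B-like cells Igha had 34.6, 56.8, 99.2 and 40.4 CPM from 17 of 190 cells, and Ighg3 17.3, 35.5, 28.9 and 32.3 CPM from 10 cells. Ighg2c had 11 UMIs in mature B-like cells and Ighg1 had 1.

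Low counts of these genes outside the B lineage differed in amount between libraries. In the 15120 stem-like cells, Ighg1 had 0, 26, 16 and 37 UMIs in libraries 1 to 4. In secreting cells Ighg1 was at 0.533, 0, 2143 and 2334 CPM, and library 2 also held the cell with 2595 Ighg1 UMIs outside the definition. Ighg2c had 26, 4, 56 and 0 UMIs in stem-like cells, and 1431, 569, 1330 and 23.2 CPM in secreting cells. Ighg3 had 12, 3, 0 and 10 UMIs in stem-like cells, and 2664, 966, 14.9 and 614 CPM in secreting cells. For all 3 genes, the library with 0 UMIs in stem-like cells was one whose secreting cells had no cell dominated by that gene. The reverse did not hold: library 2 had 0 secreting cells dominated by Ighg1 and 26 Ighg1 UMIs in stem-like cells. Where these low counts came from was not tested. Igha had 148, 31, 13 and 54 UMIs in stem-like cells without those holding plasma cell RNA, and 1833, 4141, 1023 and 832 CPM in secreting cells, so its highest library was not the same in both. Ighg2b had 31, 25, 17 and 50 UMIs in stem-like cells, and 3533, 2687, 3816 and 3706 CPM in secreting cells.

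Ighm was higher in secreting cells in all 4 libraries, by a log2 of 5.08 to 6.55 on UMIs outside the immunoglobulin genes, and Igkc by 6.51 to 7.18. Of 9904 genes tested, 443 were higher (4.47%) and 341 lower (3.44%) in secreting cells by the same rule of size. Of the 443, 167 had at most 3 UMIs in all mature B-like cells together. Among genes with at least 100 UMIs, 319 of 5458 were higher and 193 lower. Of 8 plasma cell transcription factors 6 were higher and 0 lower, with a median log2 difference of 3.04, against -0.22 over all genes. With the immunoglobulin genes kept in the total, 207 were higher and 1962 lower. Xbp1 had 1276 to 1766 CPM in secreting cells against 0 to 83.9 CPM in mature B-like cells, Irf4 135 to 176 CPM against 17.4 to 28.1 CPM, and Prdm1 75.4 to 140 CPM against 0 to 11.2 CPM.

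The secretory apparatus was higher almost throughout, with 26 of 30 tested genes higher, 0 lower and a median of 3.08. Hsp90b1, the chaperone GRP94, was higher by a log2 of 2.70 to 3.70, and Hspa5, the chaperone BiP that holds free heavy chains, by 2.20 to 3.01. Txndc5, a disulfide isomerase, was higher by 3.77 to 4.52, and Edem1, which helps clear misfolded glycoproteins, by 3.63 to 4.58. Of 15 surface and survival genes 7 were higher and 1 lower: Slamf7 was higher by 2.99 to 4.52, and Cd38 had 6.09 to 18.2 CPM in secreting cells against 122 to 158 CPM in mature B-like cells. Tnfrsf17 had 240 to 428 CPM against 0 to 11.2 CPM, and Cd28 66.1 to 96.3 CPM against 0 to 2.81 CPM.

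The B cell identity list went the other way, with 0 higher and 16 of 19 lower and a median of -3.75. Pax5, the B cell commitment factor, had 0 to 7.66 CPM in secreting cells against 157 to 258 CPM in mature B-like cells. Spib had 0 to 1.92 CPM against 105 to 179 CPM, and the inhibitory receptor gene Cd22 0 to 1.92 CPM against 53.4 to 95.9 CPM. Fcer2a, the low-affinity IgE receptor CD23, had 0.600 to 5.96 CPM against 43.0 to 83.9 CPM. Among 12 homing receptors 1 was higher and 3 lower. Ccr10, a chemokine receptor of plasma cells that home to mucosa, had 30.0 to 41.4 CPM in secreting cells and 0 in mature B-like cells. Cxcr5, the follicle homing receptor, Ccr7 and S1pr1, the receptor for exit into blood, were lower. Class switching and somatic mutation genes (13 tested) and cell division genes (12 tested) had none counted in either direction. Of all genes 4.47% were higher and 3.44% lower, so none among so few genes says little. The medians of these lists were -0.78 and -0.59, against -0.22 over all genes. Switch factors and cytokine receptors had 0 higher and 3 of 13 lower, namely Il4ra, Runx1 and Batf, and the early B cell list 0 higher and 2 of 7 lower, Bach2 and Ebf1.

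The named genes of this comparison included Slpi, a secreted protease inhibitor, with 927 to 7265 CPM in secreting cells against 4.20 to 81.4 CPM in mature B-like cells. Prg2, which encodes an eosinophil granule protein, had 1348 to 2146 CPM against 0 to 53.4 CPM. Ly6k had 141 to 406 CPM against 0 to 8.39 CPM, and Tent5c, an RNA poly(A) polymerase that stabilises immunoglobulin RNA, 274 to 342 CPM against 0 to 14.04 CPM. Derl3, a gene of endoplasmic reticulum associated degradation, had 288 to 404 CPM against 0 to 11.2 CPM. Chst1 had 160 to 253 CPM against 0 to 7.17 CPM, and Pls1 64.2 to 93.9 CPM against 0 to 2.81 CPM. On the lower side Siglecg, an inhibitory lectin of B cells, had 5.96 to 9.58 CPM in secreting cells against 256 to 366 CPM in mature B-like cells. Klf2, a factor of resting lymphocytes, had 4.20 to 22.0 CPM against 418 to 617 CPM, and H2-DMb2, of the antigen loading machinery, 0 to 11.5 CPM against 202 to 281 CPM. Btg1, a growth inhibitor, had 18.3 to 27.8 CPM against 314 to 470 CPM, and B3gnt5 0 to 4.88 CPM against 39.3 to 115 CPM.

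Mature B-like cells differed from pro-/pre-B-like cells in heavy chain genes as in light chain genes. With immunoglobulin genes in the total, Ighm was higher by a log2 of 1.23 to 3.07 (1.14 to 1.81 without the cell of most Ighm UMIs in each library), Ighd by 4.02 to 4.68, Igha by 3.38 to 5.56 and Ighg3 by 3.22 to 4.90. Ighg2b ranged from -1.16 to 0.79 and was counted in neither direction. Igkc was higher by 6.01 to 7.27, with 4271 to 6978 CPM in mature B-like cells against 44.1 to 70.6 CPM in pro-/pre-B-like cells. Of 11606 genes tested, 511 were higher (4.4%) and 577 lower (4.97%). Mature B-like cells had 140959 to 371641 UMIs per library, against 4090622 to 6234979 in pro-/pre-B-like cells. Of the 577, 251 had at most 3 UMIs in all mature B-like cells together, and 183 of them had none. Among genes with at least 100 UMIs, 332 of 9148 were higher and 430 lower. The B cell identity list had 12 of 19 higher and 1 lower, which was Ebf1, with a median of 3.56, against -0.08 over all genes. Cd74, the invariant chain of class II antigen presentation, had 5850 to 6982 CPM in mature B-like cells against 30.8 to 88.2 CPM in pro-/pre-B-like cells.

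Genes of receptor assembly and division were lower. The early B cell list had 0 of 10 higher and 7 lower, with Rag1 at 0 to 4.32 CPM in mature B-like cells against 112 to 155 CPM in pro-/pre-B-like cells, and Vpreb3 at 90.7 to 170 CPM against 1734 to 1903 CPM. Of 12 cell division genes 0 were higher and 11 lower, with log2 differences of -3.73 to -2.29 for Mki67 and -3.46 to -2.31 for Top2a. Homing receptors had 4 of 11 higher and 0 lower, which were Cxcr5, Ccr7, Itgb7 and S1pr1. Switch factors and cytokine receptors had 4 of 13 higher and 0 lower, which were Cd40, the receptor for T cell help, Il4ra, Tgfbr2 and Batf. Class switching and somatic mutation genes had 0 of 13 higher and 1 lower (Parp1). Plasma cell transcription factors had 2 of 7 higher, Ell2 and Ikzf3, and 0 lower. Folding and secretion had 3 of 30 higher and 0 lower, and surface and survival 6 of 14 higher and 2 lower.

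The named genes here were Fcmr, the Fc receptor for IgM, with 393 to 525 CPM in mature B-like cells against 0.183 to 0.481 CPM in pro-/pre-B-like cells, Cybb, with 138 to 232 CPM against 0.802 to 1.65 CPM, and Cd2, with 86.8 to 121 CPM against 0 to 0.186 CPM. H2-Eb1, a class II gene, had 1332 to 2129 CPM against 9.12 to 22.1 CPM, and Fcrla 117 to 180 CPM against 0.745 to 1.71 CPM. On the lower side, Gfra2 had 0 UMIs in mature B-like cells, against 95.7 to 121 CPM in pro-/pre-B-like cells. Lef1, a transcription factor of early lymphoid cells, had 0 to 5.38 CPM against 189 to 224 CPM. Dlg2 had 0 to 2.69 CPM against 74.6 to 98.3 CPM, and Pde2a 0 to 8.64 CPM against 180 to 209 CPM. Bfsp2 had 4.32 to 35.5 CPM against 524 to 629 CPM, and Cplx2 0 to 17.3 CPM against 170 to 214 CPM. Rsph9 had 0 to 4.32 CPM against 46.4 to 51.9 CPM, and Ect2, a gene of cytokinesis, 0 to 5.38 CPM against 52.9 to 78.0 CPM.

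The genes whose levels most resembled each member were found by Pearson's r of log2(CPM + 1) over 57 sums of 15 classes and 4 libraries. These sums share libraries and depth, and the values are a description of 9112 genes. Ighm was closest to Tmem154 (r = 0.89) and Irf4 (0.88), and summed IgG to Irf4 and Derl3 (both 0.88). Ighd was closest to Cd37, a tetraspanin of B cells (0.91), then Spib (0.88) and Ccr7 (0.87). Igha was closest to Lipc (0.91), Krt222 (0.90) and Txndc5 (0.87).

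The variable genes carried by the secreting cells differed between libraries. A leading heavy and a leading light variable (V) gene, each with at least 2 UMIs, were found in 462 of the 479 cells, in 230 distinct pairs. The pair names the V genes only and not the junction sequence, so cells with the same pair need not be 1 clone. In library 1, 28 of 99 cells with a pair (28.3%, interval 19.7% to 38.2%) had Ighv1-80 with Igkv17-127, and in library 2 it was 17 of 77 cells (22.1%, interval 13.4% to 33.0%). In libraries 3 and 4 it was 0 of 109 and 0 of 177 cells. All 45 cells were Ighm cells.

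Other frequent pairs also kept to some libraries. Ighv1-50 with Igkv4-70 had 5 cells in library 1, 6 in library 2 and 0 in libraries 3 and 4. Library 4 was led by Ighv1-15 with Igkv5-39, with 25 of 177 cells (14.1%, interval 9.35% to 20.1%), and Ighv2-2 with Igkv10-96, with 13, neither of which was seen in the other libraries. Library 3 had no pair above 8 of 109 cells. Libraries 1 and 2 had 9 pairs in common, 16.4% of the 55 pairs of library 1 and 21.4% of the 42 of library 2, and these pairs held 44 cells of library 1 and 36 of library 2. Any other 2 libraries had 7 to 11 pairs in common, with at most 19.3% of the cells of either. Secreting cells of different libraries shared no barcode sequence, but all 41122 kept cells shared only 178, so none among 479 cells says little.

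Ighv11-2 with Igkv14-126 was the most frequent of the 3 pairs found in every library, with 3, 6, 8 and 8 cells in libraries 1 to 4, all of them Ighm cells. These V genes are known from B-1 cells that bind phosphatidylcholine, a self-renewing B cell lineage of early life that secretes natural IgM. Of the 230 pairs, 201 were in 1 library, 23 in 2, 3 in 3 and 3 in all 4. Among cells with a pair, 2 of 9 Igha cells and 5 of 23 IgG cells had one that an Ighm cell also had, and 167 of the 230 pairs were seen in 1 cell. The lambda light chain was dominant in 6.86%, 2.38%, 13.5% and 8.24% of the secreting cells of libraries 1 to 4, with overlapping intervals.

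**Figure D5:**
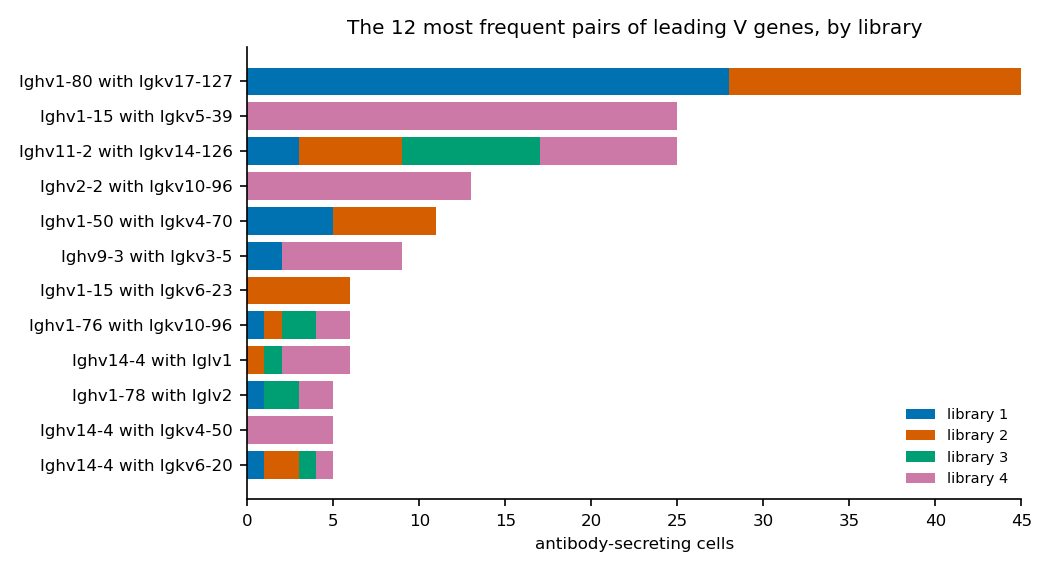
Number of antibody-secreting cells (horizontal axis) with each of the 12 most frequent pairs of leading heavy and light V genes, stacked by library. The top pair has 45 cells from libraries 1 and 2 alone, and Ighv11-2 with Igkv14-126 has 25 cells from all 4 libraries.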

How the data were processed

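The authors deposited 1 aggregated matrix of UMI counts per gene and barcode, whole numbers that were not normalized, which per the file headers came from Cell Ranger 6.1.2; the submitters' processing notes name the mm10 build. Whether doublets were removed before deposit is not given in the sources used here. Barcodes under 500 detected genes or over 10% mitochondrial UMIs were removed. Scrublet in Scanpy 1.11.5 called 0 or 1 doublet per library and so gave no usable call; the highest 8% of its scores were left out as an alternative. Classes were drawn by UMI minimums on marker genes, with no heavy or light chain gene.

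UMIs were summed per class and library and given as CPM, and log2 ratios used CPM + 1. Cell classes were compared within each library, and no test was run, since libraries of unknown genotype were not treated as replicates of a group; a gene with at least 20 UMIs was counted if 4 of 4 libraries showed at least 2-fold in 1 direction, and Jchain, Mzb1 and the other genes that define the classes were left out of these counts. Intervals are exact binomial (Clopper-Pearson) at 95% and cover counting error only. The genes named from each comparison were the 10 highest and 10 lowest by the library closest to 0, with at least 50 CPM on the higher side. Members and lists were chosen with earlier results of these data known. The contrast code was tested on simulated data. Alternatives were other pseudocounts, gene filters, scalings, class minimums and cell filters, and leaving out each library. Sequences come from GENCODE vM21 transcripts. Results for some list members are not reported here.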

Additional observations from a re-analysis of the deposited data

How the results depend on the processing

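Of 182 recomputed values 153 stayed within their limits, among them all 30 isotype shares, 80 of 88 levels and shares of cells, 36 of 56 counts of genes and 7 of 8 values on V gene pairs. Some alternatives could not change an isotype share. The dominant gene held at least 88% of heavy chain UMIs in every secreting cell, so a minimum of 80% changed nothing. No secreting cell failed the cell filter, so leaving the filter out changed nothing either. The comparison of switched with Ighm cells and its alternatives, and the values without the cell of most Ighm UMIs or without cells holding plasma cell RNA, were chosen after seeing the data. Its 7 higher genes became 4 with a pseudocount of 5 CPM, 1 with at least 100 UMIs, 4 with immunoglobulin genes kept in the total and 17 without the highest 8% of doublet scores, of which 2 were among the 7, and 27 to 35 when a library was left out. Its 542 lower genes became 234 with a pseudocount of 5 CPM, 36 with at least 100 UMIs, 1186 with no UMI filter and 353 without the 2 most frequent V gene pairs of each library on the Ighm side. They were 518 to 778 when a library was left out. Between secreting and mature B-like cells, keeping immunoglobulin genes in the total gave 207 higher and 1962 lower, and at least 100 UMIs gave 193 lower. Leaving out a library gave 480 to 534 higher and 394 to 538 lower, the last without library 2. Between mature and pro-/pre-B-like cells, a pseudocount of 5 CPM gave 333 higher and 349 lower, at least 100 UMIs 332 higher, and leaving out the highest doublet scores 967 lower. Leaving out a library there gave 580 to 645 higher and 728 to 833 lower. Without the highest doublet scores the median Ighd level was 431 CPM in mature B-like and 15.2 CPM in pro-/pre-B-like cells, and Ighm 835 CPM in pro-/pre-B-like cells. A leading V gene of at least 5 UMIs left a pair in 92.8% of secreting cells of library 3. The cause of these changes was not tested. The planned comparisons of Igha and of IgG with Ighm cells were not run, since no library had 10 cells of either. No paired analysis was possible because the replicate numbers of the labels could not be tied to libraries, so Srcap mutant and wild-type samples could not be paired; cell classes were compared within each library. The number of switched cells per library, 5 to 12, limits every share of a single isotype.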
